A study of Mus musculus with 8 samples.

Results

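Kit, Kitl, Csf1, Csf1r, Il34, Flt3, Il7, Il7r and Thpo were followed through the cell types of the mouse liver, to see which cells carried the transcripts of the factors that sustain Kupffer cells and blood progenitors and which cells carried their receptors. These 9 genes were chosen by name, and all 9 were found among the 46517 genes counted in the table. They comprise 5 secreted or membrane-bound ligands and 4 receptors. In GENCODE annotation of GRCm38 the ligand genes lie at chr10:100015630-100100416 (Kitl), chr3:107741048-107760469 (Csf1), chr8:110741829-110805924 (Il34), chr3:7569994-7613760 (Il7) and chr16:20724454-20734511 (Thpo). The receptor genes lie at chr5:75574916-75656722 (Kit), chr18:61100598-61132149 (Csf1r), chr5:147330741-147400489 (Flt3) and chr15:9505788-9530176 (Il7r).

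Macrophages, including the Kupffer cells that line the liver sinusoids, depend for survival on CSF1R, a receptor tyrosine kinase with separate ligands, CSF1 and IL-34. KIT and its ligand, encoded by Kitl and also called stem cell factor, act in blood stem cells, mast cells and melanocytes. FLT3 marks early progenitors and dendritic cells, IL-7 and its receptor serve lymphocytes and innate lymphoid cells, and thrombopoietin, encoded by Thpo, is the hepatic hormone that drives platelet formation. The liver is a blood-forming organ in the fetus, and in the adult its sinusoids house the Kupffer cells.

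Promoter windows in RefSeq (GRCm38.p6) matched 6 of the 9 genes by symbol. The 250 bases before the RefSeq start, which is also the GENCODE start, are printed for Csf1, the ligand with the widest distribution, and Flt3, whose level was high in 1 immune cluster alone. Capitals mark GC boxes (GGGCGG on either strand) and TATA boxes (TATAAA on either strand). Both windows lie on the minus strand, at chr3:107760470-107760719 (Csf1) and chr5:147400490-147400739 (Flt3).
Csf1: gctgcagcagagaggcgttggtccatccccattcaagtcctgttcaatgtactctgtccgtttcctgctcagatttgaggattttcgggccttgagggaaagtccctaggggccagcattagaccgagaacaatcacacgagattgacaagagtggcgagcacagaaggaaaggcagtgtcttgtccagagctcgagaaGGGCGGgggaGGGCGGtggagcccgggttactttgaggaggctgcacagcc
Flt3: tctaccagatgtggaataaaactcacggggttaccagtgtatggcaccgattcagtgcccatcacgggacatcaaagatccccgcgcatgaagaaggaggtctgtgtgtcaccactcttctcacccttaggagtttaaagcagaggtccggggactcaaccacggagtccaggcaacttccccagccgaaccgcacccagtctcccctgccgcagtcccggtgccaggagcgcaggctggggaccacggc
The Csf1 window held 2 GC boxes, 45 and 35 bases before the start, and 0 TATA boxes. The Flt3 window held 0 of either. Of 32851 such windows, 32.7% held a GC box and 12.4% held a TATA box.

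The series consists of single liver cells from adult mice, which were sorted into plates and sequenced as full-length Smart-seq2 libraries. Its 8 samples are pools: for each of the mesenchymal, endothelial, immune and epithelial classes, 1 pool of cells from male mice and 1 from female mice. The mice were C57BL6/J or carried heterozygous reporters on that background (Pdgfrb GFP, Pdgfra H2bGFP, Acta2 GFP, Cspg4 dsRED, Cldn5 GFP and combinations) and ranged from young adults to animals of about a year. Sorting used EPCAM for cholangiocytes, CD31, VE-cadherin or Cldn5 GFP for endothelium, CD68 for macrophages, and PDGFRα or the reporters for mesenchyme, while hepatocytes were taken without a marker. The livers were not perfused, so blood cells can be among the immune cells. A pool, not a cell, was the replicate, and because the labels tie no cell to an animal, p-values measure the spread between pools, which differ in sex and plates.

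In all, 3491 cells from 22 plates were used, with a median of 228708 counts per cell and 0 duplicated cell names. The pools held between 39 and 998 cells and between 6399550 and 218419420 counts, so that the female epithelial pool was the shallowest. Every plate held cells of 1 sex, and the 339 female mesenchymal cells came from 1 plate. Clusters are those of the deposited annotation, 30 in number (prefix e for endothelial, p for epithelial, i for immune, m for mesenchymal). They were defined on the same transcriptomes, so part of any difference between clusters or classes is built in. Levels are CPM, the counts of a gene in the summed cells scaled to a common total count. Where genes are compared with each other the CPM was divided by the exon length in kb. The share of cells with at least 20 counts of a gene is given beside levels, since low counts of abundant transcripts were widespread. The B cell cluster i5 has 58 cells (57 annotated as Bcell and 1 as Monocytes, median depth 262466 counts). Csf1r had at least 1 count in 84.5% of them but at least 20 counts in only 17.2% (95% exact binomial interval 8.59 to 29.4%). Such intervals cover counting error only.

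**Figure D1:**
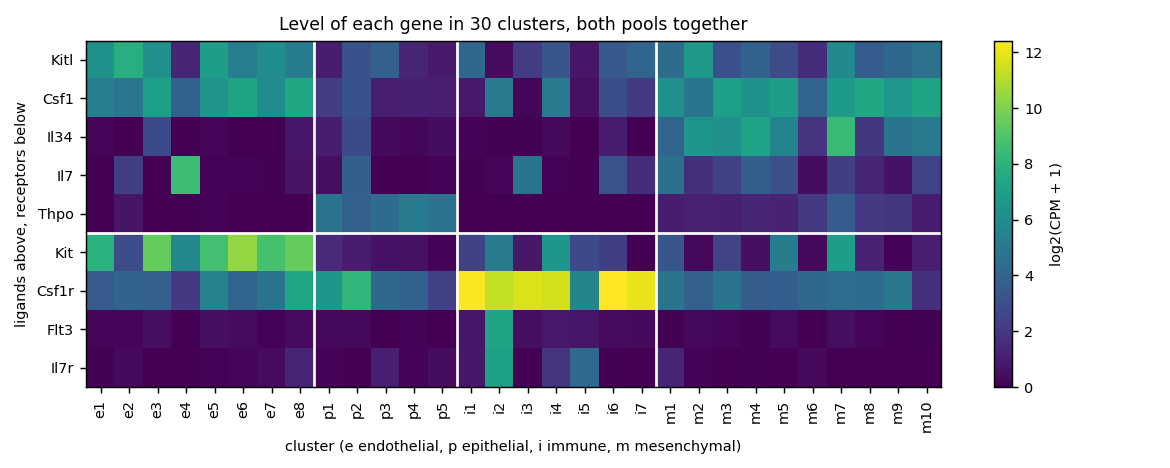
Level of the 5 ligands (upper rows) and 4 receptors (lower rows) in 30 clusters, as log2(CPM + 1) with both pools together. White lines separate endothelial, epithelial, immune and mesenchymal clusters. Csf1r is brightest in the immune clusters, Kit in the endothelial ones, Il34 in m7 and Il7 in e4.

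Endothelial cells carried the Kit and Kitl transcripts, mesenchymal cells carried Il34, immune cells Csf1r, Flt3 and Il7r, and epithelial cells Thpo. Csf1 was shared between endothelial and mesenchymal cells. Each class was compared with the mean of the other 3 over the 8 pools, with edgeR's quasi-likelihood test and a call at an adjusted p under 0.05 and a change of at least 2-fold. In the endothelial contrast 2 of 9 genes were higher and 1 lower, where 8.28% of 24046 genes tested were called (5.33% higher and 2.96% lower). The epithelial contrast had 1 higher and 2 lower (12.4% of all genes called, 8.37% higher and 4.05% lower), the immune contrast 3 higher and 2 lower (13.2%, 7.92% higher and 5.25% lower), and the mesenchymal contrast 1 higher and 1 lower (11.8%, 9.47% higher and 2.33% lower). Over the 9 genes the median log2 difference was -1.62 in the endothelial, -1.36 in the epithelial, -1.19 in the immune and 0.51 in the mesenchymal contrast, against 0.04, -0.27, 0.09 and 0.02 over all genes.

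Kitl, the ligand of KIT, was an endothelial transcript first and a mesenchymal one second. The endothelial pools held 85.6 (male) and 95.5 CPM (female). The mesenchymal pools held 25.8 and 41.6 CPM, the immune pools 6.34 and 13.2 CPM, and the epithelial pools 5.72 and 6.72 CPM. Both endothelial pools lay above all 6 others (log2 difference 2.76 ± 0.41, SE; adjusted p = 0.00661), and the epithelial contrast was lower (-2.39 ± 0.53; adjusted p = 0.0221).

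Among the 30 clusters Kitl was highest in e2, the portal vein endothelium, with 222 CPM (male) and 226 CPM (female), and 39.8% of its 128 cells had at least 20 counts. Next came the sinusoidal cluster e5 with 119 and 143 CPM, whose range of pools did not meet that of e2. Over plates with at least 5 cells both overlapped, with 72.3 to 508 CPM in e2 and 26.4 to 317 CPM in e5. The arterial smooth muscle cluster m2, with 107 and 96.6 CPM, was the leading mesenchymal source. Below it, the ranges of e1 (38.2 and 133 CPM), e3 (79.9 CPM in 230 male cells but 1.07 CPM in 6 female cells) and e7 (80.2 and 56.5 CPM) overlapped. The portal vein smooth muscle cluster m7 held 57.3 and 63.8 CPM. Kitl was near absent from lymphatic endothelium (e4), at 0.62 and 1.95 CPM with 0 of 22 cells at 20 counts, which allows a share of up to 13.6%.

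Within the endothelium, e4 was lower in Kitl than the mean of the other 7 clusters (log2 difference -5.71 ± 1.5; adjusted p = 0.0282). That call was lost with sums per plate (adjusted p = 0.868), where 1 plate held enough lymphatic cells, and with the pool as a replicate block (adjusted p = 0.0534). The lead of e2 missed the threshold (log2 difference 2.66 ± 0.77; adjusted p = 0.104; 0.0035 without the filter on low counts and 0.0388 with at least 10 cells per sum), while its lower sum was 1.55 times the highest of the 14 other sums. A finer annotation divides e2 into 114 portal vein cells with 187 CPM and 14 cells of the peribiliary vasculature (PBV), the small vessels around bile ducts, with 487 CPM. In the PBV cells 8 of 14 had at least 20 counts, and Kit was at 5.52 CPM.

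Csf1, the first of the CSF1R ligands, had the widest distribution of the ligands. It lay at 10 CPM or more in 20 of 30 clusters, against 17 for Kitl, 8 for Il34, 6 for Thpo and 5 for Il7. This limit was not divided by exon length, so it was stricter for the shorter transcripts of Il34 and Thpo. The endothelial pools held 87.1 (male) and 104 CPM (female) and the mesenchymal pools 113 and 58.2 CPM, with overlapping ranges. In the immune pools it was 11.95 and 5.92 CPM, and in the epithelial pools 3.70 and 32.8 CPM. No class contrast called it. The differences were 1.93 ± 0.67 (adjusted p = 0.125) for endothelial and 1.88 ± 0.67 (adjusted p = 0.127) for mesenchymal cells, each set against a mean that contains the other. Both passed without the filter on low counts (adjusted p = 0.00515 and 0.00406) and with sums per plate (adjusted p = 0.0122 and 0.00407). Csf1 was also called lower in immune cells with DESeq2 (adjusted p = 0.0114) and without the filter (0.00324), and lower in epithelial cells with sums per plate (0.0241).

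The clusters with most Csf1 came from both classes, and the ranges of most neighbours in the order overlapped. In e8, sinusoidal endothelium, it stood at 139 (male) and 193 CPM (female) and in e6 at 104 and 169 CPM. The portal fibroblast clusters m8 and m10, which hold male cells alone, held 172 and 153 CPM. In the cluster m3 of stellate cells, which store vitamin A, it was 134 and 92.9 CPM. Within m3, the 73 cells annotated as HSC had 206 CPM, with at least 20 counts in 35.6% of them, and the 113 annotated as capsular HSC (cHSC) had 78.3 CPM, with at least 20 counts in 14.2%. Portal vein endothelium (e2) held 15.3 and 38.5 CPM and arterial smooth muscle (m2) 39.1 and 20.3 CPM. Hepatocyte clusters held 1.04 to 3.71 CPM, and the Kupffer clusters between 0.165 CPM (i3) and 34.2 CPM (i4). Of the 48 cells of i4, 24 bear the annotation Cont and 24 Cyc. Its 2 plates with at least 5 cells held 0 and 183.98 CPM of Csf1. Endothelial markers summed to 3113 CPM in i4, and their part in this Csf1 was not tested. Neither the sinusoidal contrast (log2 difference 1.88 ± 0.71, adjusted p = 0.242, but 0.0162 with at least 10 cells per sum) nor the mural contrast (-1.25 ± 0.57, adjusted p = 0.430) passed. The sinusoidal group here included e7, which the annotation assigns to central vein.

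Il34, the other ligand of CSF1R, was mainly a mesenchymal transcript. The mesenchymal pools held 70.2 (male) and 66.3 CPM (female), against 3.38 and 11.3 CPM in epithelial, 2.55 and 0.15 CPM in endothelial and 0.044 and 0.19 CPM in immune pools. All 6 other pools were below both mesenchymal ones (log2 difference 6.09 ± 0.92; adjusted p = 0.00444), and the immune contrast was lower (-6.06 ± 1.43; adjusted p = 0.0271).

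Smooth muscle of the portal vein (m7) was the leading source of Il34, with 320 CPM (male) and 378 CPM (female) and 42 of 76 cells at 20 counts or more (55.3%; interval 43.4 to 66.7%). Its lower value stood above the highest of the 16 other mesenchymal sums by 1.14 times. All 5 plates with at least 5 cells of m7 had between 277 and 558 CPM. Peribiliary fibroblasts (m4) followed with 130 and 280 CPM, arterial smooth muscle (m2) with 102 and 83.1 CPM, stellate cells (m3) with 74.6 and 70.6 CPM, and m5 with 41.4 and 57.5 CPM. In this order of 5 clusters no 2 neighbours had overlapping ranges of pools, but 9 female cells stood behind the upper value of m4. Over plates with at least 5 cells neighbours did overlap, with 100 to 280 CPM in m4 and 41.9 to 182 CPM in m2. In m3 the plates ran from 29.7 to 249 CPM and in m5 from 0.85 to 214 CPM. Portal fibroblasts had little, with 11.05 and 19.2 CPM in m1, 2.97 CPM in m8 and 32.3 CPM in m10. The antisense genes Gm15894 and Gm15895, which overlap Il34 on the other strand, held 10.2 and 23.8 CPM in m7, their highest levels. The part of their reads in the Il34 counts was not tested.

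Over both pools the leading mesenchymal clusters of Il34 (m7) and Csf1 (m8) differed, but in m7 Csf1 was at 83.7 (male) and 199.5 CPM (female), a range that holds the 172 CPM of m8. Only 1 plate held at least 5 cells of m8 (176 CPM), while the 7 such plates of m5 ran from 53.6 to 232 CPM of Csf1. Per kb of exon, m7 held 169 CPM per kb of Il34 and 20.1 of Csf1, m4 held 75.3 and 15.7, and m2 held 46.2 and 5.23. Fibroblasts of m8 went the other way, with 1.51 CPM per kb of Il34 and 32.6 of Csf1, and m10 held 16.5 and 29.0. The stellate cluster m3 had both, at 37.7 and 24.01. Endothelial clusters had Csf1 alone, since their Il34 stayed at 3.02 CPM per kb or less. Across the 30 clusters the levels of both ligands, as log2(CPM + 1), had a Pearson r of 0.51, which is a description of clusters that share libraries.

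**Figure D2:**
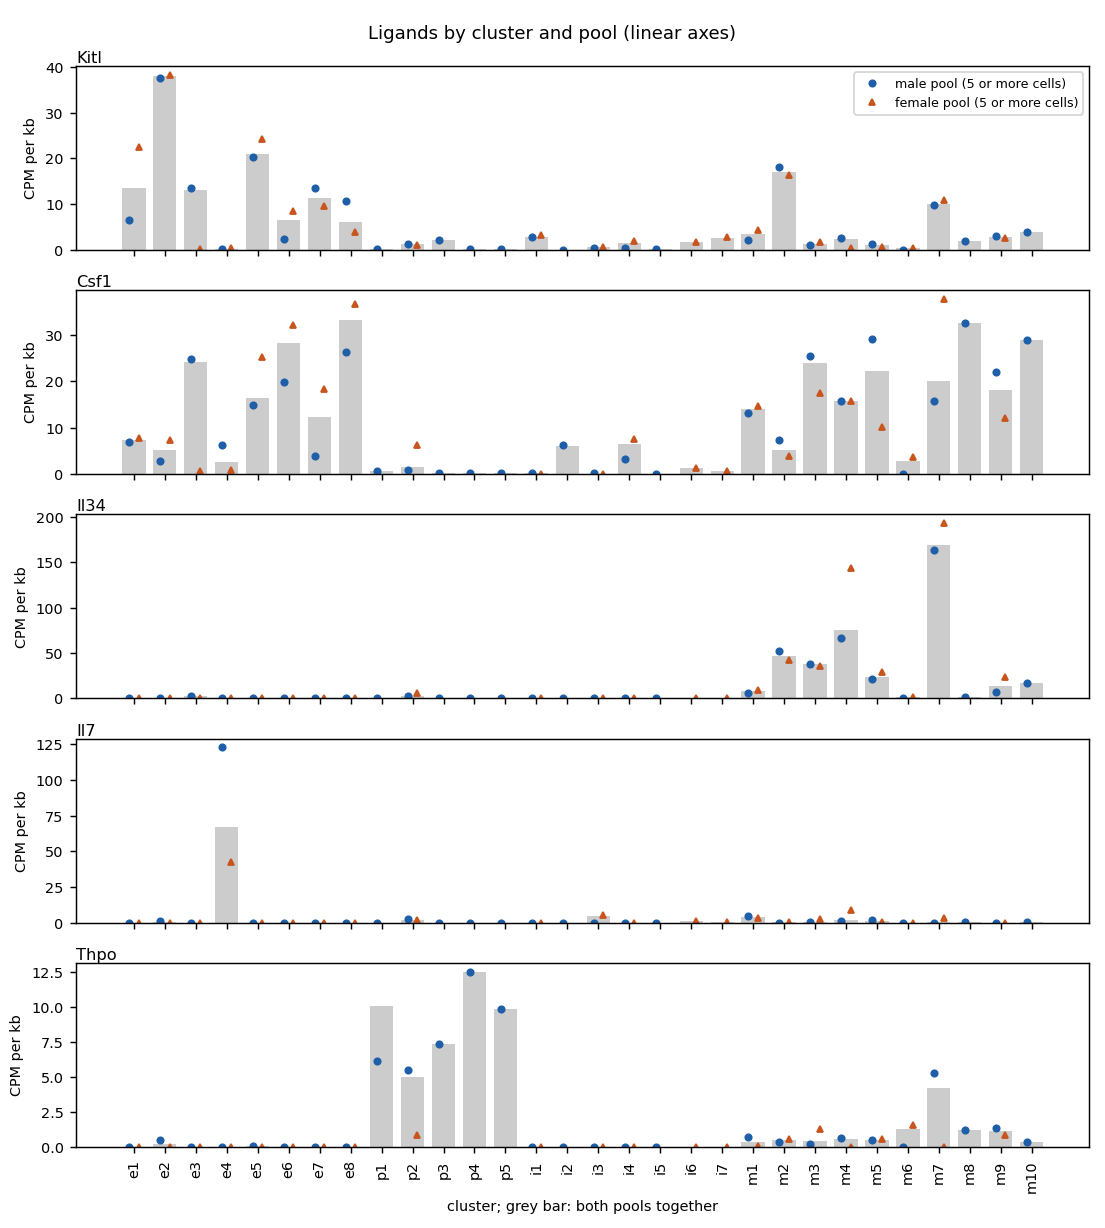
Ligand levels in CPM per kb of exon by cluster (linear axes). Grey bars give both pools together, circles the male pool and triangles the female pool where it has 5 or more cells. Kitl peaks in e2, Il34 in m7 (163 in male and 193 in female cells), Il7 in e4 and Thpo in the hepatocyte clusters, while Csf1 is spread over e and m clusters.

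The mesenchymal groups were also compared with each other: fibroblasts (m1, m4, m8, m9, m10), stellate cells (m3) and mural cells (m2, m5, m6, m7). In m5, 88 of 122 cells are annotated as second layer cells of the central vein wall (SLC) and 34 as venous smooth muscle. Of 8 members tested (Flt3 did not pass the filter on low counts), 0 were called in the 3 contrasts by edgeR and 0 by DESeq2, where edgeR called 1.02% of 22266 genes for fibroblasts (0.674% higher, 0.341% lower), 2.72% for stellate cells (2.44% and 0.274%) and 2.28% for mural cells (0.763% and 1.52%). At an unadjusted p under 0.05 edgeR had 4, with Il34 and Kit on the low side in fibroblasts (log2 difference -1.09 and -1.96), Csf1 on the low side in mural cells (-1.25) and Csf1r on the high side in stellate cells (2.01). In m3 Csf1r stood at 6.23 (male) and 118 CPM (female), 88.5% of the latter from 1 cell, and the Kupffer cell markers summed to 11.6 and 281 CPM in the same pools. The mural group joins m7, with the most Il34, to m6 (large vein smooth muscle), with 0.57 and 3.31 CPM.

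Il7, the lymphocyte survival factor, was concentrated in the lymphatic endothelial cluster e4. Its 9 male cells held 696 CPM and its 13 female cells 240 CPM, and 9 of the 22 cells had at least 20 counts (40.9%; interval 20.7 to 63.6%). The lymphatic marker genes summed to 5812 CPM in e4 and to at most 11.6 CPM in every other endothelial cluster. Of the 14 other endothelial sums 7 were at 0, and the lower e4 value was 28.9 times the highest of them. The e4 contrast called Il7 (adjusted p = 5.37e-06), and it was called in all 7 tested alternatives. In 2 of these, sums per plate and at least 10 cells per sum, e4 had a single sum that is assumed to vary like those of the other clusters. It was 1 higher beside 1 lower of 7 members tested, where 6.8% of 18321 genes were called (4.92% higher and 1.88% lower), 901 of 1245 of them higher (1454 of 1738 with DESeq2 size factors). Flt3 and Thpo did not pass the filter among endothelial sums. The strongest cell gave 29.6% of the cluster's counts.

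Lower Il7 levels were found in the portal fibroblasts m1 (27.9 and 19.1 CPM; 15 of 181 cells at 20 counts), in m4 (7.68 and 51.1 CPM) and in cholangiocytes (p2; 13.0 and 9.93 CPM). The range of m4 overlapped those of m1 and p2. Gm16685, which overlaps Il7 on the other strand, held 6.19 CPM in p2, its highest level, beside 12.7 CPM of Il7. The part of its reads in the Il7 of p2 was not tested. Cluster i3 showed 26.9 CPM of Il7, of which 98.8% came from 1 cell. The e2 contrast also called Il7 (log2 difference 4.40 ± 0.9997; adjusted p = 0.035), but 97.8% of its counts in e2 came from 1 cell. With sums per plate the difference turned to -1.86, and neither DESeq2 (adjusted p = 0.112) nor the fit with the replicate block (adjusted p = 0.179) called it.

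Thpo was at a low level and highest in epithelial cells. The epithelial pools held 18.6 (male) and 17.97 CPM (female), the mesenchymal pools 2.46 and 1.42 CPM, and the endothelial pools 0.14 and 0 CPM. Immune cells had 0 counts in 185498054, which allows up to 0.0162 CPM. The epithelial contrast was higher (adjusted p = 0.00734) and the lower epithelial pool was 7.30 times the highest other pool. That lower, female value rests on 115 counts in 39 cells, 87.8% of them from 1 cell. The immune contrast was lower (adjusted p = 0.035). Among hepatocytes the level was 32.9 CPM in p4, 26.5 in p1, 25.9 in p5 and 19.4 in p3, with 20 counts or more in 15 of their 203 cells. Without its 2 female cells p1 held 16.05 CPM, the lowest of these clusters. Each of p3, p4 and p5 had 1 plate with at least 5 cells, so differences between them cannot be told from differences between plates. The 4 such plates of p1 ran from 0 to 68.7 CPM, with a median of 0.39 CPM. In cholangiocytes Thpo was at 14.4 CPM (male) and 2.24 CPM (female), where hepatocyte marker genes summed to 4293 and 4625 CPM, against 10522 to 22811 CPM in hepatocyte clusters. The part of these hepatocyte transcripts in the cholangiocyte value was not tested. In mesenchymal cells Thpo missed the threshold (log2 difference 4.18 ± 1.25; adjusted p = 0.0835) but passed with DESeq2 (adjusted p = 0.0110), without the filter on low counts (0.00234), with thinned cells (0.0365) and with sums per plate (0.00272). The leading mesenchymal cluster, m7, held 13.8 CPM in male cells, of which 93.8% came from 1 cell, and 0 CPM in female cells. Chrd, which overlaps Thpo on the other strand, held 8.88 CPM in p4 and up to 76.7 CPM (m9).

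Kit, the receptor of stem cell factor, was an endothelial transcript. The endothelial pools held 587 (male) and 516 CPM (female), the immune pools 23.5 and 4.39 CPM, the mesenchymal pools 16.8 and 5.84 CPM, and the epithelial pools 0.53 and 5.16 CPM. The lower endothelial pool was 21.9 times the highest other pool (log2 difference 6.14 ± 0.82; adjusted p = 0.00454). The epithelial contrast was lower (-4.24 ± 1.15; adjusted p = 0.0484), and that call did not hold in every alternative (adjusted p = 0.0542 with DESeq2 size factors, 0.0581 with cells thinned to 50000 counts and 0.0951 with the pool as a replicate block).

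Within the endothelium the leading cluster of Kitl had little Kit. Cluster e2, with the most Kitl, had 6.08 and 6.31 CPM of Kit, and e6, with the most Kit (1214 and 1426 CPM; 89.3% of 112 cells at 20 counts), had 13.5 and 50.3 CPM of Kitl. In the sinusoidal contrast 1 of 7 members was called, Kit (3.68 ± 0.56; adjusted p = 0.00231; 1.92% of all genes called, 0.759% higher and 1.16% lower). Here e7, which the annotation assigns to central vein, was counted as sinusoidal. Placing it with the veins gave 2.85 (adjusted p = 0.00478). The e2 contrast called Kit lower and Il7 higher (1.93% of genes called, 1.85% higher and 0.0819% lower; Kit -6.09 ± 1.08, adjusted p = 0.00712). The e1 contrast called 0 of 7 members (1.41% of genes called, 1.32% higher and 0.0873% lower). At an unadjusted p under 0.05 edgeR had 1, Il7, and DESeq2 called 0, while without the filter Il7 was called (adjusted p = 0.0289). In e4 the pools held 5.02 and 158 CPM of Kit, and edgeR did not call it (-1.73 ± 0.80, adjusted p = 0.231). It was called lower without the filter (adjusted p = 0.00947) and with thinned cells (0.00692). With a single e4 sum the difference was -6.30 (sums per plate) and -5.88 (at least 10 cells per sum).

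Outside the endothelium Kit was found in the portal vein smooth muscle m7 at 147 (male) and 28.3 CPM (female), and in m5 at 37.5 and 34.7 CPM. Markers of mast cells, which carry KIT themselves, and basophils summed to 63.1 (male) and 0.087 CPM (female) in m5, and their part in this Kit was not tested. In m7, 13 of 76 cells had at least 20 counts of Kit and 11 had at least 20 of Kitl, with 3 cells having both. The immune cluster i4 had 255 and 31.7 CPM, but 59.8% of its counts came from 1 cell. The endothelial markers of i4 lay above those of the other immune clusters (331 to 1069 CPM), and their part in its Kit was not tested. The mast cell and basophil markers summed to 0.17 CPM in i4 and to 143 CPM in i2, where Kit stood at 35.0 CPM. Of the sinusoidal cells with at least 20 counts of Kitl, 33 of 50 in e3, 11 of 11 in e6, 6 of 9 in e8 and 9 of 28 in e5 had at least 20 of Kit. In e7, which the annotation assigns to central vein, 3 of 10 such cells did. The share with both in e3, 13.98%, was near the 14.9% that the product of the separate shares gives, as it was in e6 (9.82% against 8.77%), e5 (5.96% against 6.63%), e8 (3.87% against 3.41%) and e7 (2.0% against 1.38%).

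Csf1r, the shared receptor of CSF1 and IL-34, was an immune transcript with 3082 (male) and 4141 CPM (female) in the immune pools. Both lay at least 10.8 times above the highest other pool (log2 difference 6.20 ± 0.36; adjusted p = 0.000156). The epithelial pools followed with 189 and 285 CPM, then the endothelial (26.8 and 34.3 CPM) and mesenchymal pools (11.99 and 30.9 CPM). Both of the last classes were called lower (-3.17 ± 0.46, adjusted p = 0.00623, and -3.78 ± 0.48, adjusted p = 0.00202). The endothelial call was lost with sums per plate (-1.26; adjusted p = 0.217).

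The 5 Kupffer clusters held between 3066 CPM (i4) and 5445 CPM (i6), and the monocytic cluster i2 held 2510 CPM with 58.5% of its 65 cells at 20 counts. B cells (i5) held 48.5 CPM. In the immune comparison, where i2 and i5 rest on single male sums that are assumed to vary like the others, Kupffer cells were higher in Csf1r and lower in Il7r (2 of 8 members, Thpo not passing the filter; 2.35% of 20110 genes called, 0.995% higher and 1.35% lower). B cells were lower in Csf1r (1 of 8; 0.935%, 0.104% higher and 0.83% lower) and monocytic cells higher (1 of 8; 0.234%, of which 0% lower). The Csf1r differences were 3.63 ± 0.23 for Kupffer, -6.00 ± 0.37 for B and 2.37 ± 0.23 for monocytic cells, and the last sets i2 against a mean in which B cells are low. The 8 Kupffer cell markers stood in i2 at 2.28 to 44.7% of their level in Kupffer clusters and Csf1r at 58.2%, 9 of its 65 cells bear the annotation sKC and 56 Monocytes, and the part of Kupffer transcripts in this Csf1r was not tested. The monocytic call was lost with DESeq2 (adjusted p = 0.925) and with sums per plate (adjusted p = 0.190).

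Cholangiocytes, the lining cells of the bile ducts, carried Csf1r above every cluster outside the immune class. The 157 male cells of p2 held 289 CPM and its 37 female cells 292 CPM, and 97 of 194 cells (50%; interval 42.8 to 57.2%) had at least 20 counts. All 6 plates with at least 5 such cells had some, between 14.8 and 324 CPM. Hepatocyte clusters p3, p4 and p5 held 17.3, 13.96 and 4.49 CPM, and in p1 85.5% of the counts came from 1 cell. Cholangiocyte markers summed to 7558 CPM in p2.

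Kupffer cell transcripts were measured in the same cells. The 8 Kupffer cell markers stood in p2 at 0.10 to 0.52% of their level in Kupffer clusters, while Csf1r stood at 6.70%. In the endothelial cluster e8 the markers stood at 2.27 to 7.49% and Csf1r at 3.64%, and in i5 at 0.49 to 2.08% and 1.13%. Of the 97 p2 cells with at least 20 counts of Csf1r, 61 had 0 counts of any of the 8 markers. The 121 p2 cells with no marker count held 293 CPM of Csf1r and the other 73 cells 280 CPM. In e8 the corresponding levels were 16.4 CPM in 52 cells and 227 CPM in 103 cells, and in p1 they were 0.40 CPM in 34 cells and 202 CPM in 30 cells. The marker sum in p2 differed between pools, with 33.3 CPM (male) and 687 CPM (female), beside 289 and 292 CPM of Csf1r. Hmgxb3, whose annotated span overlaps the end of Csf1r on the other strand, held 31.9 CPM in p2, within its range in hepatocyte and mesenchymal clusters (33.3 CPM in p4 and 41.9 CPM in m7). Counts without strand cannot tell reads of such a pair apart, and gene counts cannot say which isoform was read. The difference between p2 and hepatocytes was not tested. The part of Kupffer cell transcripts or of Hmgxb3 reads in the Csf1r of p2 was not tested either, and the split by marker counts was chosen after seeing the data.

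**Figure D3:**
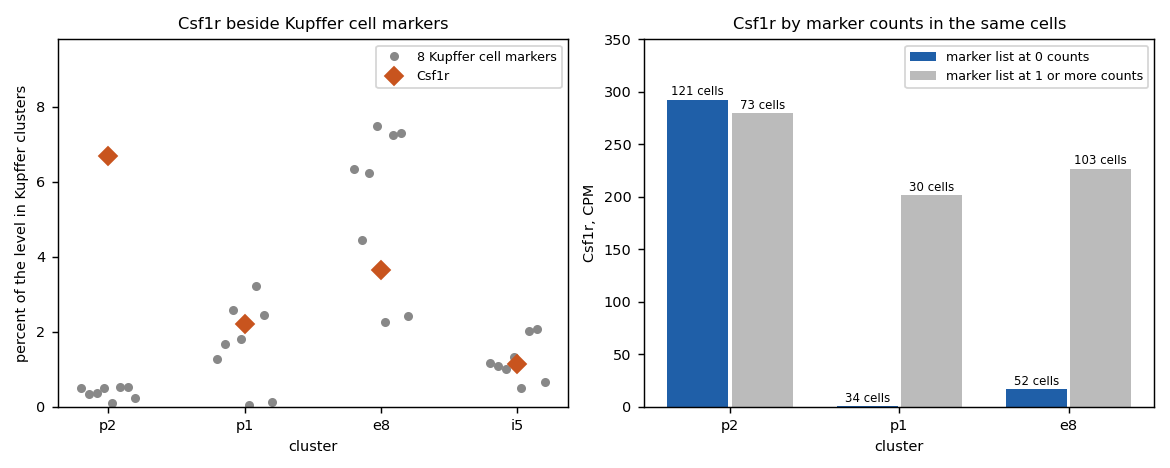
Left, level of Csf1r (diamonds) and of 8 Kupffer cell markers (circles) in clusters p2, p1, e8 and i5, in percent of the level in Kupffer clusters. Right, Csf1r level in CPM in cells with 0 or with 1 or more counts of these markers. In p2 the diamond (6.70%) lies above all circles, and the bars are alike (293 and 280 CPM). In p1 and e8 the cells without marker counts are low.

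Flt3 and Il7r, both receptors of lymphoid and dendritic precursors, reached 20 CPM in the monocytic cluster i2 alone. The male immune pool held 49.4 CPM of Flt3 and 47.3 of Il7r, and the female pool 0.60 and 0.27 CPM. Cluster i2, with 63 male and 2 female cells, held 150 CPM of Flt3 and 130 CPM of Il7r. The immune contrast called both (7.19 ± 1.22, adjusted p = 0.00721, and 6.79 ± 1.64, adjusted p = 0.0296), and with the replicate block, the pool as a term of the fit, Il7r was not called (adjusted p = 0.131). Set against the other immune cells, i2 was not called for Flt3 (7.997 ± 3.64; adjusted p = 0.633) or Il7r (6.54 ± 3.33; adjusted p = 0.828). With sums per plate both passed (adjusted p = 0.00422 and 0.00691), and with DESeq2 Flt3 did (adjusted p = 0.00522). A finer clustering places both in 16 cells of community i7c, a dendritic group, with 307 CPM of Flt3 and 379 CPM of Il7r. Monocyte and dendritic markers summed to 3155 CPM in i2 and T and innate lymphoid markers to 455 CPM. Il7r in the B cell cluster i5 (17.9 CPM) came to 97.4% from 1 cell, and 57 cells of i5 are annotated as Bcell and 1 as Monocytes. In Kupffer cells Il7r was at 3.53 CPM or less in every sum (adjusted p = 0.0195, but 0.807 with the replicate block). In the lymphatic cluster with most Il7, 0 of 22 cells had a count of Il7r, which allows a share of up to 13.6%.

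**Figure D4:**
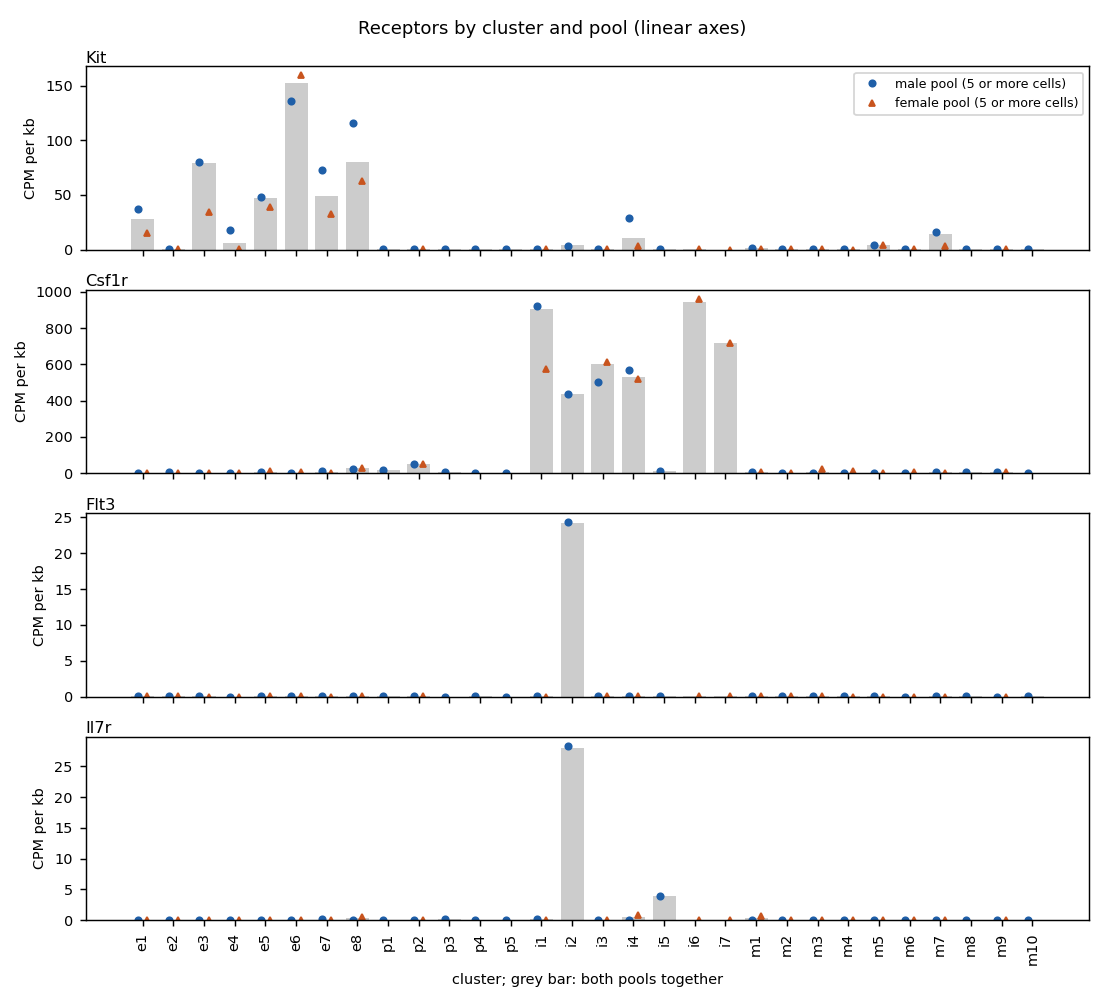
Receptor levels in CPM per kb of exon by cluster (linear axes). Grey bars give both pools together, circles the male pool and triangles the female pool where it has 5 or more cells. Kit is highest in e6 (153 over both pools), Csf1r in the Kupffer clusters (up to 943) and Flt3 and Il7r in i2 (24.2 and 28.0).

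Some cells carried Csf1r together with a ligand. In e8, 10 of 155 cells had at least 20 counts of both Csf1 and Csf1r (6.45%, where the product of the shares is 7.30%). The Kupffer markers, at 1406 CPM in e8, move with this Csf1r, and their part in it was not tested. In m7, 5 of 76 cells had both Il34 and Csf1r (6.58%, where the product is 4.36%), and these were 5 of its 6 cells with Csf1r. The 8 Kupffer cell markers stood in m7 at 0 to 0.92% of their level in Kupffer clusters and Csf1r at 0.48%. The part of Kupffer cell transcripts in the Csf1r of m7 was not tested. Both CSF1R ligands met in the same cell in 9 of 76 cells of m7, 8 of 98 of m4 and 11 of 127 of m10, or 11.8%, 8.16% and 8.66%, against products of 10.9%, 7.85% and 4.34%.

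The genes whose pattern over the 30 clusters was most like that of a member were found by Pearson r of log2(CPM + 1) among 16593 genes that reached 10 CPM in some cluster. The nearest to Csf1r were Mpeg1, Vsig4 and Clec4f (each r = 0.96). For Kit they were Pcdh12 (0.89), Slc7a5 (0.87) and Rab3b (0.85), for Kitl Dennd4c (0.81), Nrarp (0.80) and Gm27477 (0.80), for Csf1 Gm11747 (0.93), Coro2b (0.92) and Tmem204 (0.92), and for Il34 Tlcd5 (0.92), Gm15612 (0.90) and Palm2 (0.89). Thpo was nearest to A330041J22Rik (0.94), Gstm6 (0.91) and Aldh7a1 (0.90). The patterns of Flt3 and Il7r each rest on i2, where many genes are high, and Flt3 was nearest to Gm21762, Klrd1 and X1810065E05Rik (each 0.99) and Il7r to Ighj1 (0.95), Cd3e (0.95) and Gm11775 (0.94). Il7 had weaker matches in Mir705 (0.77), Ager (0.75) and Mir568 (0.74).

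Partners and other cytokines of blood formation gave the setting. Of 7 partner genes, 1 was higher in endothelial cells, 2 lower in epithelial cells, 2 higher and 1 lower in immune cells, and 1 higher and 1 lower in mesenchymal cells. Of all genes tested, 5.33% were called higher and 2.96% lower in endothelial cells and 8.37% and 4.05% in epithelial cells. In immune cells these shares were 7.92% and 5.25%, and in mesenchymal cells 9.47% and 2.33%. The list medians were 1.18, -2.88, 0.67 and 2.12 on the log2 scale, against 0.04, -0.27, 0.09 and 0.02 over all genes. Il2rg, the common chain that pairs with the IL-7 receptor, was higher in endothelial (3.48 ± 0.49; adjusted p = 0.00558) and immune cells (5.94 ± 0.51; adjusted p = 0.000411). Its endothelial pools held 120 and 120 CPM, and e2 held 274 CPM. Flt3l, the ligand of FLT3, stood highest in the fibroblast clusters m10 (183 CPM), m1 (151), m4 (131) and m8 (95.4), while the fifth, m9 (60.3), lay below B cells (72.4). It was lower in mural cells (-2.39; adjusted p = 0.0177), and the fibroblast contrast did not call it. Sdc1, a proteoglycan that binds IL-34, reached 1213 CPM in m7, the cluster with most Il34, and was higher in mural cells (1.83; adjusted p = 0.0496). Among these, m5 held 299.9 CPM, m6 128 CPM and m2 13.2 CPM, the lowest of all mesenchymal clusters.

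Of 14 other cytokines 9 were tested between classes. The mesenchymal contrast called 4 higher and 0 lower (median 2.56), the epithelial 1 higher and 4 lower (-3.06), the endothelial 0 and 3 (-0.69) and the immune 3 and 1 (1.24). Cxcl12, the chemokine that retains blood stem cells, was the leading one with 3441 and 2400 CPM in the mesenchymal pools (log2 difference 6.05; adjusted p = 0.000505) and 5713 CPM in m3. Tnfsf13b, Il6 and Lif were the other 3 higher in mesenchymal cells, and the same 3 were lower in endothelial cells. Il6, Tgfb1 and Ccl2 were higher and Cxcl12 lower in immune cells, and Lif was the 1 higher in epithelial cells. All 16 other receptors were tested, and the immune contrast called 10 higher and 2 lower (median 4.34), the endothelial 4 and 2 (-0.85), the epithelial 0 and 4 (-2.46) and the mesenchymal 1 and 2 (-0.28). Beside both lists, the immune contrast called 7.92% of all genes higher and 5.25% lower (median 0.09) and the endothelial 5.33% and 2.96% (0.04). The epithelial contrast called 8.37% and 4.05% (-0.27) and the mesenchymal 9.47% and 2.33% (0.02). The immune receptors called higher were Csf2ra, Csf2rb, Csf3r, Il5ra, Il6ra, Epor, Cxcr4, Ccr2, Tnfrsf11a and Tnfrsf13c, while Il6st and Lifr, which were higher in endothelial cells with Il3ra and Tgfbr2, were lower. Il11ra1 was the 1 higher in mesenchymal cells.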

How the data were processed

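Liver cells were dissociated, sorted into 384-well plates and made into Smart-seq2 libraries of polyadenylated RNA, read as single ends. Per the labels the submitters' processing notes name bcl2fastq, Bowtie2, featureCounts, Subread and Seurat with GRCm38 (mm10). The deposited values are raw counts per gene and cell. The authors' quality filters, applied earlier, took out shallow or gene-poor cells, cells rich in mitochondrial or spike-in reads, putative doublets and cells of mixed identity. Whether counting used strand is not given in the sources used here.

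Here 92 spike-in rows (1.95% of counts) were left out. Raw counts were summed per class, or per cluster with at least 5 cells, and pool, and tested with edgeR 4.0.16 (TMM, filterByExpr, quasi-likelihood, Benjamini-Hochberg over all genes). The replicate is the pool (2 per class). Members and lists were chosen with earlier results of these data known. All members are named, as are partner or list genes called where a member was called or that bind a member, and the 3 genes most like each member. Intervals are 95% exact binomial, and a count of 0 allows 3 counts. Exon lengths are from GENCODE. Alternatives were DESeq2 1.42.0, other size factors, no filter, replicate block, sums per plate, at least 10 cells, community clusters, single pools and cells thinned to 50000 counts, leaving out 13 shallower cells. The test was checked on simulated data. Csf1r in cells without Kupffer cell markers was added after seeing the data.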

Additional observations from a re-analysis of the deposited data

Results flagged for a closer look

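The immune contrast for Il7r differed in sign between the sexes when 1 pool per class was used, with a log2 difference of 9.78 in the male pools and -0.29 in the female pools. The difference between the sexes was not tested. The cluster that carried Il7r, i2, had 63 male and 2 female cells.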

How the results depend on the processing

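Of 22 member calls, 15 were kept in every tested alternative, and of 140 tested alternatives 125 kept the call, 14 lost it and 1 reversed. The reversed test was Il7 in e2 with sums per plate (-1.86), and the cause was not tested. Of 40 values from single pools 1 reversed, Il7r in the immune class without the male pools (-0.29, against 9.78 without the female pools). Class comparisons called 11 to 17 members over 4 contrasts (13 as reported), immune comparisons 3 to 6 (4) and mesenchymal comparisons 0 throughout. Endothelial comparisons called 5 as reported, 9 without the filter on low counts, 7 with at least 10 cells per sum, 4 with sums per plate and 3 with the replicate block. All gene calls summed over contrasts moved from 10984 (class), 1339 (mesenchymal), 2209 (endothelial) and 707 (immune) to 20045, 3193, 5253 and 1871 with DESeq2, and the first 3 moved to 19544, 2972 and 4801 without the filter. In the immune comparison the replicate block gave 449 and sums per plate 2804. The block joins the sums of 1 pool within a class and, between classes, pools of 1 sex, and it lost the calls of Kit in epithelial cells, Il7r in immune and Kupffer cells, Il7 in e2 and Kitl in e4. DESeq2 size factors moved the median log2 difference of all genes in e4 from -0.42 to 0.01. The genes most like Kit and Il34 changed in full, and those of Flt3 in none, with sums per cluster and pool. Without the male pools the immune comparison gave no value, since i2 and i5 were male. Shares of cells fell with shallower cells, since cells held 47063 to 1128421 counts, and a low share is not evidence of absence.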
